A study of Mus musculus with 5 samples.

Results

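The genes described here are those of de novo lipogenesis, the route that turns glucose carbon into fatty acids, and their levels were read in single nuclei of mouse interscapular brown adipose tissue (iBAT). The 10 genes Acly, Me1, Acaca, Acacb, Fasn, Elovl6, Scd1, Scd2, Srebf1 and Mlxipl were taken by symbol as members of this route. All 10 were found among the 32285 genes of both deposited matrices. In GRCm38, Acly (chr11:100476353-100528000), Acaca (chr11:84129672-84401651), Fasn (chr11:120805846-120824547) and Srebf1 (chr11:60199089-60222581) lie on one chromosome. Scd2 (chr19:44293674-44306864) and Scd1 (chr19:44394455-44407879) are neighbours, and Acacb (chr5:114146535-114250761) and Mlxipl (chr5:135089890-135138382) share a chromosome. Elovl6 lies at chr3:129532355-129638495 and Me1 at chr9:86581371-86695953. Values are sums over each whole gene.

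In this route Acly splits citrate into acetyl-CoA, and Me1 (malic enzyme) makes NADPH, the reducing power of the pathway. Acaca and Acacb make malonyl-CoA, the first in the cytosol and the second at the mitochondrial surface, where malonyl-CoA restrains the entry of fatty acids for oxidation. Fasn builds palmitate, Elovl6 lengthens it, and Scd1 and Scd2 desaturate the products. Srebf1 encodes the insulin-responsive factor SREBP1 and Mlxipl the glucose-responsive factor ChREBP, and both are known to drive transcription of this pathway. Brown fat is known to run fatty acid synthesis and fatty acid oxidation side by side.

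One matrix holds 2 libraries, from 3-month-old littermate controls (WT) and from 3-month-old Ucp1-STX4KO mice, which lack the membrane fusion protein syntaxin 4 in cells with Ucp1-driven Cre. The other holds 3 libraries from C57BL/6J mice aged 2, 12 and 24 months, and is called the aging matrix below. Nuclei were sorted before the droplet assay, and the methods name 4 male mice without saying how they were divided, so there was 1 library per condition and no replicate. Barcodes end in a library number, the suffix, which no label ties to a genotype or an age. Libraries are therefore named by suffix, and no genotypes or ages were compared. No p-value is given because a nucleus is no replicate, and the 95% intervals cover counting error only.

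The WT and Ucp1-STX4KO matrix holds 20307 nuclei with 116053743 UMIs (unique molecular identifiers, each standing for 1 captured RNA molecule), and the aging matrix 30000 barcodes with 54656055 UMIs. The median barcode had 5998 (suffix 1) or 3284.5 (suffix 2) UMIs in the first matrix and 891 to 1719.5 in the aging libraries. Libraries shared 23 to 45 barcodes. Nuclei were gated by 9 marker lists, and 10506 (suffix 1) and 6494 (suffix 2) of the first matrix and 831, 959 and 394 of the aging matrix passed as adipocyte nuclei. The labels call all samples brown adipocytes, yet the aging libraries held 1903, 6035 and 6595 endothelial-gated nuclei. The methods set Cell Ranger to keep 10000 cells, and each aging library holds 10000 barcodes. Mitochondrial genes made up 3.89, 12.6 and 6.35% of UMIs in the aging libraries, against 0.213 and 0.0852% in the first matrix. Whether each gated barcode held a nucleus was not tested, which bears on all aging values by type. The adipocyte gate also held RNA of other types: in the first matrix macrophage markers summed to 9.03 CPM (counts per 1000000 UMIs) in suffix 1 and 72.6 CPM in suffix 2, stromal markers to 39.0 and 119.6 CPM and skeletal muscle markers to 7.93 and 131 CPM, beside 12548 and 16924 CPM for the adipocyte list.

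In the first matrix Acly and Fasn differed most, by ratio, between nuclei high and low in the summed UMIs of the remaining members. Such a ratio is not closeness of correlation, and the highest pair correlations given below all joined Acaca with another member. For their ratios the promoter windows of Acly and Fasn are printed. Each runs from 250 bases before to 50 after a RefSeq start on GRCm38.p6, given 5′ to 3′ on the strand of the gene, which is the minus strand for both, Acly at chr11:100527951-100528250 and Fasn at chr11:120824498-120824797. Capitals mark CCAAT (or its reverse complement ATTGG) and GGGCGG (or CCGCCC).
Acly: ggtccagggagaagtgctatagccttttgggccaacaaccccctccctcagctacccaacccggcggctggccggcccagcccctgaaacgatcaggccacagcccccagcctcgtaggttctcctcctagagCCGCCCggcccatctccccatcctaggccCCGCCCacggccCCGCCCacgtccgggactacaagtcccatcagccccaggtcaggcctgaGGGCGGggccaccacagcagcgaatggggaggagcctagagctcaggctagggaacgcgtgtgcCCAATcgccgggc
Fasn: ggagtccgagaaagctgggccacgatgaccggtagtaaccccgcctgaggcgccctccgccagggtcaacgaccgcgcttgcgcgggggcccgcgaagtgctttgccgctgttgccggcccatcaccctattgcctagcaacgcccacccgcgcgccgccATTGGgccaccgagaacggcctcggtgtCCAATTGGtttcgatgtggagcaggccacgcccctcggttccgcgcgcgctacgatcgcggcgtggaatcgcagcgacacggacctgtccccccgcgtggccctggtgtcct
The Acly window held 1 CCAAT and 4 GGGCGG matches, and the Fasn window 3 CCAAT matches, a pair of which overlap on opposite strands. RefSeq windows were matched for 8 of the 10 genes, 12 windows in all, and neither Scd1 nor Scd2 had an entry. CCAAT occurred on either strand in windows of 6 of these 8 genes, and in those of 41.1% of all 27025 genes. GGGCGG occurred in 4 of 8 genes against 38.2% of all genes, CACGTG in 1 of 8 (Mlxipl) against 8.09%, and TCACNCCAC in 1 of 8 against 1.44%. These are matches of letters, not measured binding sites.

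The first question was how strongly brown adipocyte nuclei carried each gene. Levels are CPM summed over adipocyte-gated nuclei, given for suffix 1 and suffix 2 of the first matrix and then suffixes 1, 2 and 3 of the aging matrix. Acaca stood at 2527, 2625, 2217, 1841 and 1955 CPM, and was the steadiest of the abundant members across the 5 libraries. Acacb stood at 2816, 1212, 2581, 1286 and 2130.4 CPM, so suffix 2 of each matrix lay well below the others. Mlxipl ran from 639 to 1708 CPM and Elovl6 from 381 to 880.3 CPM.

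Acly was found at 308, 153, 255, 245 and 314 CPM and Fasn at 598, 248, 243, 590 and 528 CPM. Scd1, the desaturase that makes oleate, spread furthest among the abundant genes, at 1174, 507, 282, 1334 and 1716 CPM. Me1 was at 152, 496, 88.1, 141 and 158 CPM, with suffix 2 of the first matrix standing apart. Srebf1 stayed between 63.4 and 97.1 CPM and Scd2 between 12.8 and 33.8 CPM.

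The genes differ in length, and their levels were also ranked per kb of gene span. The libraries came from a 3′ kit and intron counting is not given, so whether UMIs scale with span was not tested. The order below is thus no measure of length-corrected expression. Without this division, pooled adipocyte nuclei of the first matrix held Acaca at 2557 CPM and Scd1 at 971 CPM. In the pooled adipocyte nuclei of the first matrix Scd1 led with 72.3 CPM per kb, followed by Mlxipl (29.5), Fasn (26.3) and Acacb (22.3). Acaca, whose gene spans 272 kb, came next with 9.40 CPM per kb and Elovl6 with 8.25. Acly was at 5.05, Srebf1 at 2.75, Me1 at 2.24 and Scd2 at 1.66 CPM per kb. In the aging matrix Scd1 (68.9), Fasn (22.6), Acacb (19.4) and Mlxipl (17.5) were again above Acaca (7.47), with Me1 lowest at 1.05 CPM per kb. Neighbours in this order changed places between libraries, as Fasn did with 31.5 CPM per kb in suffix 2 of the aging matrix, above Mlxipl at 13.2, while in suffix 1 Mlxipl (19.0) was above Fasn.

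The next comparison asked whether the route was a property of adipocyte nuclei or of the tissue. In the first matrix 7 of 10 genes had at least 2-fold higher CPM in adipocyte-gated nuclei than in all other gated nuclei together, beside 16.2% of all genes tested. In the aging matrix 8 of 10 did, beside 17.1% of all genes. The exceptions were Scd1, Scd2 and, in the first matrix, Srebf1. These depended on the library in part: Srebf1 passed in suffix 2 of the first matrix alone (2.14), Mlxipl did not (1.91), and Scd1 passed in suffixes 1 (2.66) and 3 (3.78) of the aging matrix.

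Among the enzymes of malonyl-CoA and elongation, Acaca was 4.95-fold higher in adipocyte nuclei of the first matrix (95% interval 4.75 to 5.16) and 14.1-fold higher in the aging matrix (13.6 to 14.5). For Acacb the ratio was 5.51 (5.27 to 5.77) and 19.9 (19.1 to 20.6), and for Elovl6 it was 5.40 (5.02 to 5.82) and 13.1. Mlxipl had a ratio of 3.92 (3.73 to 4.11) in the first matrix and of 43.7 (40.4 to 47.3) in the aging matrix, where other nuclei held 6.91, 29.5 and 17.1 CPM by library. The libraries of the first matrix gave it ratios of 6.65 and 1.91, those of the aging matrix 134, 21.7 and 64.4, and that of Acacb 6.41 and 2.93, then 37.9, 11.8 and 19.0. The low values in suffix 2 of the first matrix depend on the make-up of its other gated nuclei. Skeletal muscle nuclei held 1096 of the 1268 Mlxipl UMIs and 1001 of the 1250 Acacb UMIs found there outside adipocyte nuclei. Ratios without muscle nuclei were not computed.

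The genes of acetyl-CoA, NADPH and palmitate supply were also higher in adipocyte nuclei of every library. Pooled, Acly was 3.73-fold (3.34 to 4.18) and 4.03-fold (3.77 to 4.30) higher in adipocyte nuclei, Fasn 4.11-fold (3.77 to 4.48) and 3.19-fold (3.03 to 3.35), and Me1 2.42-fold (2.21 to 2.65) and 4.14-fold (3.76 to 4.56). The libraries differed, and a pooled value could lie outside the range of its own libraries. In the order of libraries used above, Acly had ratios of 2.85 and 2.99, then 8.13, 2.73 and 5.16, Fasn 2.56 and 3.92, then 9.23, 2.38 and 5.92, and Me1 2.75 and 3.77, then 7.48, 2.80 and 8.05. In suffix 2 of the first matrix all 3 of these genes were above Mlxipl and Acacb, though the interval of Acly (2.55 to 3.54) held the Acacb ratio. Most UMIs of Mlxipl and Acacb in its other gated nuclei lay in muscle nuclei, as given above. Srebf1 stood at 1.72 (1.47 to 2.01) and 5.06 (4.51 to 5.68).

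Brown fat genes that were no gate markers were measured in the same way. Ucp1, the uncoupling protein, was 3.99-fold higher in adipocyte nuclei of the first matrix and 12.1-fold higher in the aging matrix, and Ppara 6.93-fold and 28.1-fold. Cox8b, a respiratory chain subunit of brown fat, stood at 1.48 and 1.77 pooled, but at 1.19 and 0.856 in the libraries of the first matrix and at 11.7, 1.34 and 3.41 in those of the aging matrix. Adipocyte transcripts were thus found in other gated nuclei too, with Ucp1 at 309 and 202 CPM there in the first matrix and at 9.86, 211 and 40.2 CPM in the aging libraries, where its ratio was 103, 7.65 and 12.0, and the part of carried-over RNA in the ratios was not tested. With the upper limits the methods state (2000 UMIs and 3000 genes per nucleus), which keep 1602 adipocyte-gated nuclei of the first matrix, 3 of 10 genes passed 2-fold there. Under these limits Acaca stood at 1.80, Elovl6 at 1.96, Acly at 1.48 and Me1 at 1.81.

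**Figure D1:**
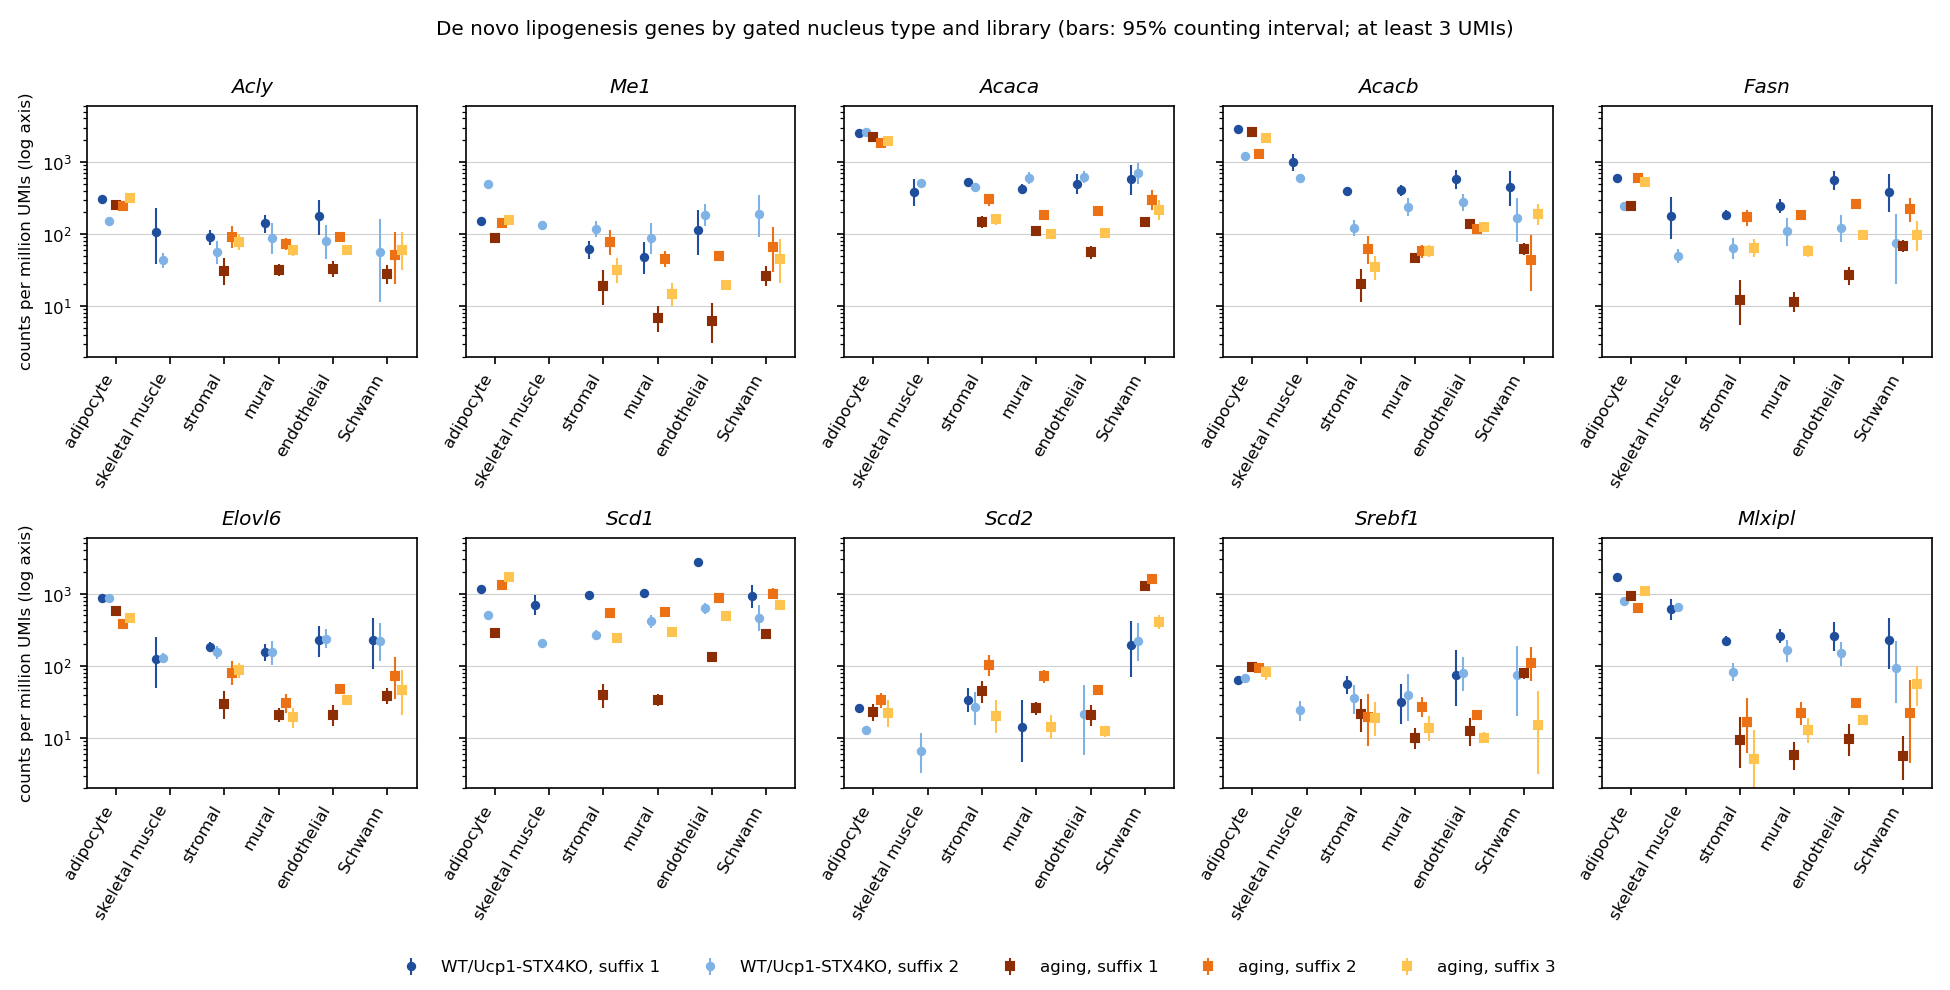
CPM of each of the 10 genes (log axis) in 6 gated nucleus types, with a point per library and bars for the 95% counting interval, drawn where a type held at least 3 UMIs of the gene. Most genes are highest in adipocyte nuclei, Scd1 is spread over all types, and Scd2 is highest in Schwann nuclei, where it reaches 1586 CPM.

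The 2 stearoyl-CoA desaturases parted by nucleus type. Scd2 stood higher in Schwann-gated than in adipocyte-gated nuclei, Schwann cells being the glia that sheathe the nerves of the fat pad. Schwann-gated nuclei held it at 193 CPM (6 UMIs in 10 nuclei) and 224 CPM (12 UMIs in 24 nuclei) in the first matrix. In the aging matrix they held it at 1272, 1586 and 406 CPM, from 2030, 217 and 80 UMIs. Every Schwann value was above every adipocyte value, the highest of which was 33.8 CPM. Pooled, Scd2 was 9.73-fold higher in Schwann than in adipocyte nuclei of the first matrix (5.76 to 15.4) and 45.0-fold higher in the aging matrix (38.2 to 53.4), where the libraries gave 56.2, 46.9 and 18.2.

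The 715 Schwann-gated nuclei with suffix 1 of the aging matrix held 90.1% of that library's Scd2 UMIs in gated nuclei. This library was the richest in Schwann nuclei, with 56 in suffix 2 and 60 in suffix 3. In aging suffix 2 endothelial-gated nuclei held 54.3% of the Scd2 UMIs, Schwann nuclei 22.8% and adipocyte nuclei 7.58%. In the adipocyte-rich first matrix 96.0% of the Scd2 UMIs in gated nuclei lay in adipocyte-gated nuclei, at a low level in each. Against all other gated nuclei Scd2 had an adipocyte ratio of 1.02 (0.832 to 1.26) in the first matrix and 0.294 (0.249 to 0.346) in the aging matrix. By library the aging ratio was 0.0805, 0.509 and 1.25 (0.770 to 1.93), so the lower adipocyte level did not hold within suffix 3. Among the other members, Srebf1 was at 78.9 and 109.6 CPM in Schwann nuclei of aging suffixes 1 and 2, near its adipocyte level of 97.1 and 92.5 CPM, and at 15.2 CPM (3 UMIs) in suffix 3.

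Scd1, by contrast, was found in all gated types. Endothelial-gated nuclei held 2768 CPM in suffix 1 of the first matrix, 2.36-fold the adipocyte level (2.06 to 2.69), though this rests on 221 UMIs in 26 nuclei. Per nucleus the counts were near each other, at 8.50 Scd1 UMIs in endothelial and 8.24 in adipocyte nuclei, which were the deeper ones. In suffix 2 endothelial nuclei held 628 CPM, and in the aging libraries 131, 877 and 487 CPM. Pooled, the endothelial to adipocyte ratio was 1.30 (1.17 to 1.45) in the first matrix and 0.683 (0.662 to 0.705) in the aging matrix. The aging libraries alone gave 0.464, 0.657 and 0.284, all below the pooled value. It fell to 0.684 in the first matrix when a nucleus needed a 4-fold lead of its marker list, and rose to 1.46 in the aging matrix among nuclei with no UMI of another list.

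Scd1 and Fasn did not keep the same ratio from type to type. Adipocyte nuclei held 1.96 and 2.04 Scd1 UMIs per Fasn UMI in suffixes 1 and 2 of the first matrix, and other gated nuclei 4.70 and 4.43. The aging libraries gave 1.16, 2.26 and 3.25 in adipocyte nuclei and 4.02, 3.37 and 5.09 in other nuclei, so the ratio was higher outside adipocyte nuclei in all 5 libraries. The ratio of Scd1 to Cox8b had no such common direction. In adipocyte and other nuclei in turn it was 7.28 and 8.07 (suffix 1) and 9.47 and 4.48 (suffix 2) in the first matrix, and 4.39 and 19.3, 5.79 and 4.86, and 19.4 and 17.5 in the aging matrix. The source of Scd1 in other types was not tested.

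In the 336 skeletal muscle nuclei of suffix 2 the mitochondrial enzyme gene and the glucose-responsive factor stood above their level in stromal nuclei. Acacb was at 591 CPM and Mlxipl at 647 CPM there, against 123 and 83.4 CPM in stromal nuclei. Stromal nuclei were the lowest of the other gated types for both genes. Endothelial nuclei held 52 Acacb UMIs among 187873 UMIs and T lymphocyte nuclei 31 among 107808, both a larger share than in stromal nuclei. The 4 B lymphocyte nuclei held 4 Acacb UMIs among 5031, a larger share than in muscle. Adipocyte markers, a measure of adipocyte RNA in these gates, summed to 2873 CPM in muscle and 1735 CPM in stromal nuclei. In suffix 1 the 9 muscle nuclei held 1000 CPM of Acacb (57 UMIs) against 390 CPM in stromal nuclei. Adipocyte markers differed by as much there, at 4930 and 2010 CPM, so nothing is read from that library. The part of carried-over adipocyte RNA in the muscle levels was tested in neither library. The ratio of Acacb to Acaca UMIs was 1.15 in muscle and 0.462 in adipocyte nuclei of suffix 2. Fasn (49.6 CPM) and Acly (43.1 CPM) in muscle nuclei of suffix 2 were no higher than in its stromal nuclei (63.9 and 56.8 CPM).

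Between the 2 libraries of the first matrix the genes did not move together. Relative to suffix 1, adipocyte nuclei of suffix 2 held 6 of 10 genes at least 1.5-fold lower, beside 35.4% of all genes tested, and 1 of 10 at least 1.5-fold higher, beside 16.5%. The median ratio of all genes was 0.814, so values are best read against it. Fasn had a ratio of 0.415 (0.405 to 0.425), Acacb 0.430 (0.426 to 0.435), Scd1 0.432 (0.425 to 0.439) and Mlxipl 0.470 (0.464 to 0.476). Acly (0.495) and Scd2 (0.493) were also lower.

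Acaca and Elovl6 were near equal in CPM, at 1.04 (1.03 to 1.05) and 0.983 (0.969 to 0.997), as was Srebf1 at 1.06. Me1 went the other way, at 3.26 (3.18 to 3.34). The pair of malonyl-CoA enzymes thus changed balance, from 1.11 Acacb UMIs per Acaca UMI in suffix 1 to 0.462 in suffix 2. The lists around the route did not share 1 direction. Of 8 genes tested for elongation and desaturation outside the 10, 5 were at least 1.5-fold higher in suffix 2 and 1 was lower (median 2.77), with Hacd2 at 4.59, Elovl3 at 3.75 and Hsd17b12 at 3.69. Of 8 for citrate and acetyl-CoA supply 1 was lower, none was higher and the median was 1.04, while 4 of 5 for NADPH supply and 7 of 14 regulators were lower, with medians of 0.569 and 0.659. Among single genes, Pnpla3, a lipid droplet protein under control of both factors, had a ratio of 0.297, Acss2, which makes acetyl-CoA from acetate, 0.483, and Thrsp, a lipogenic regulator, 0.536. Of 12 thermogenic genes 3 were higher and 4 lower, with Ucp1 at 0.783 but Dio2 at 8.54 and Ppargc1a at 14.2. Of 8 genes of glycerolipid assembly 2 were higher, among them Dgat1 at 5.03, and 5 lower. Of 7 genes of insulin signalling 3 were higher, among them Irs2 at 10.9, and 1 lower. The libraries also differed in depth and in the macrophage, stromal and muscle markers given above for the adipocyte gate, and with 1 library each these cannot be told apart from the condition of the mice.

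**Figure D2:**
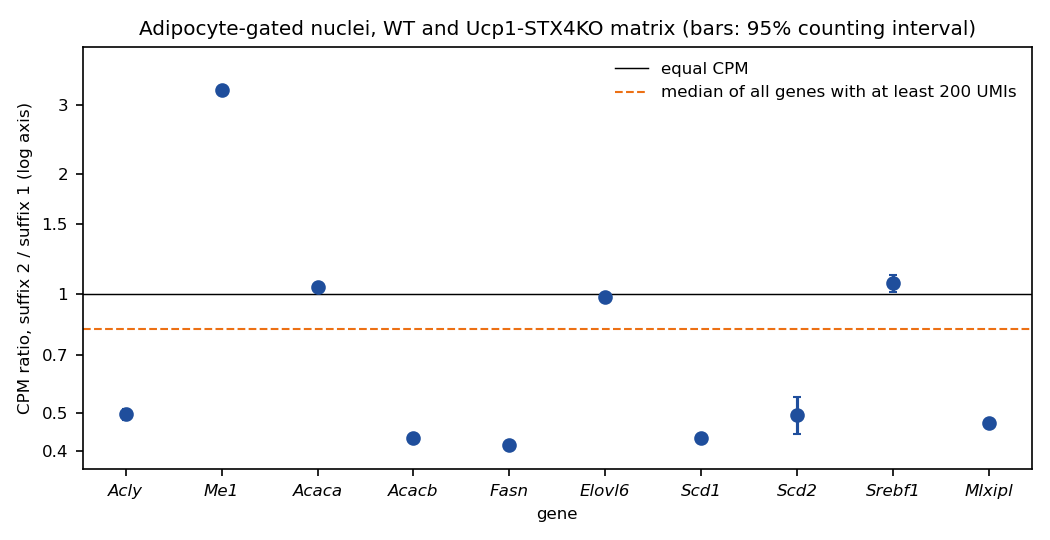
CPM ratio of suffix 2 to suffix 1 (log axis) in adipocyte-gated nuclei for each gene, with bars for the 95% counting interval. Me1 lies at 3.26, Acaca, Elovl6 and Srebf1 lie near 1, and the other 6 genes lie between 0.415 and 0.495, below the median of all genes at 0.814.

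To compare nuclei with each other, each adipocyte-gated nucleus of the first matrix was thinned to 2000 UMIs, which kept all 10506 nuclei of suffix 1 and 4892 of the 6494 of suffix 2. Aging nuclei were thinned to 1000 UMIs, which kept 745, 959 and 394. The variance over the mean of a gene across nuclei is 1 where only counting error spreads the values. Acaca was spread far beyond that, with 3.68 in suffix 1 and 7.98 in suffix 2, above 99.8% and 99.2% of the genes with a mean of at least 0.25 UMIs. In suffix 1 it was missing from more nuclei than its mean of 4.72 UMIs allows: 91.2% of nuclei had a UMI (90.7 to 91.8) where counting error alone gives 99.1%, and 1 nucleus held 38.

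Acacb, with a similar mean of 5.62 UMIs, had a variance over mean of 1.49 in suffix 1. This was far under Acaca but still above 92.7% of the genes with a mean of at least 0.25 UMIs, whose median was 1.10. Acacb was found in 98.8% of nuclei, close to the 99.6% of counting error alone. In suffix 2 it had 2.62, and in the aging libraries 1.39, 1.36 and 1.67 against 4.92, 2.94 and 2.94 for Acaca. Of the pair, the cytosolic enzyme gene was thus the more unevenly spread in all 5 libraries.

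Elovl6 was second in suffix 1 with 2.35 and had 4.15 in suffix 2. Me1 had 1.27 in suffix 1, above 83.6% of the genes with a mean of at least 0.25 UMIs. It had 4.80 in suffix 2, where it was also more abundant. Fasn (1.63 and 1.94) and Acly (1.56 and 2.87) were intermediate among the members, though above 95.3% and 94.1% of those genes in suffix 1. Srebf1 (1.04 and 1.10) and Scd2 (1.09 and 1.13) were near counting error, at 0.129 and 0.0522 UMIs per nucleus in suffix 1, where little spread can be seen at this depth.

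**Figure D3:**
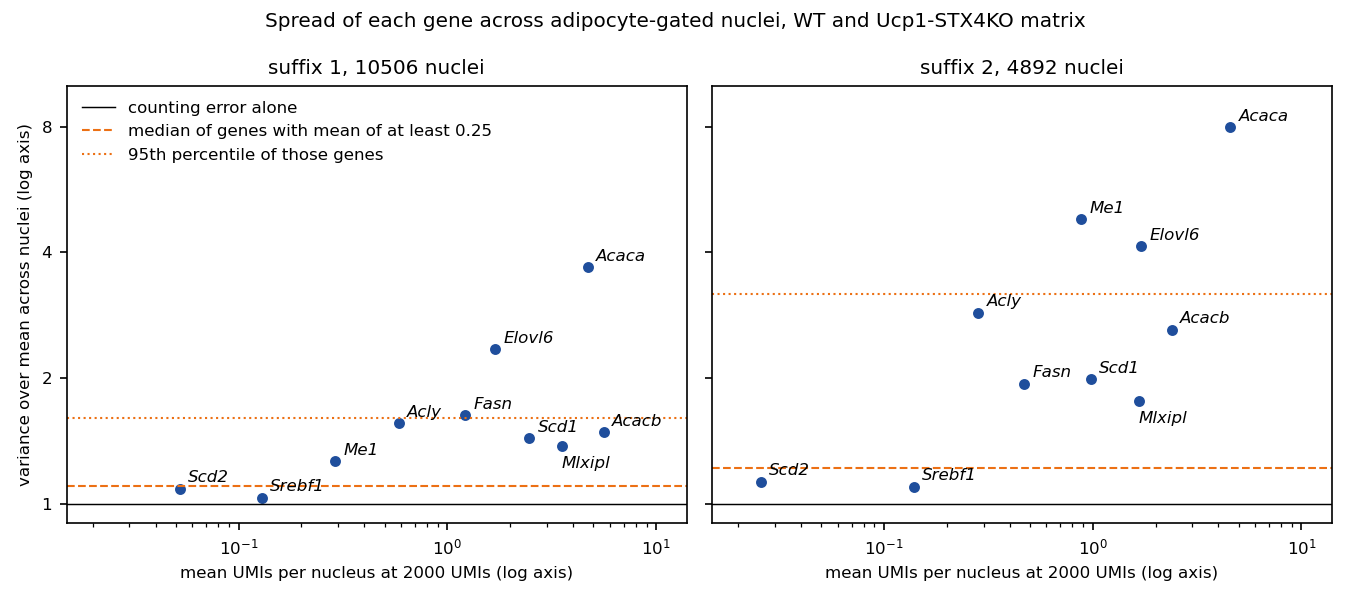
Variance over mean of each gene across thinned adipocyte-gated nuclei against its mean UMIs per nucleus (both log axes), for suffix 1 (left) and suffix 2 (right) of the first matrix. Acaca stands highest in both, at 3.68 and 7.98, while Acacb with a mean of 5.62 in suffix 1 lies at 1.49.

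Summed over the 10 genes, a nucleus of suffix 1 held a median of 19 UMIs of 2000, from 9 at the 5th to 36 at the 95th percentile. In suffix 2 the median was 10 and these percentiles 2 and 35, with a longer tail. A sum of at least 60 was reached by 44 of 4892 nuclei with suffix 2 (0.899%, 0.654 to 1.21) and by 9 of 10506 with suffix 1 (0.0857%, 0.0392 to 0.163), a limit chosen after the values were seen. Those 44 nuclei held 14568 CPM of Acaca and 6761 CPM of Me1, and Me1 was at 444 CPM in the 9 nuclei of suffix 1.

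**Figure D4:**
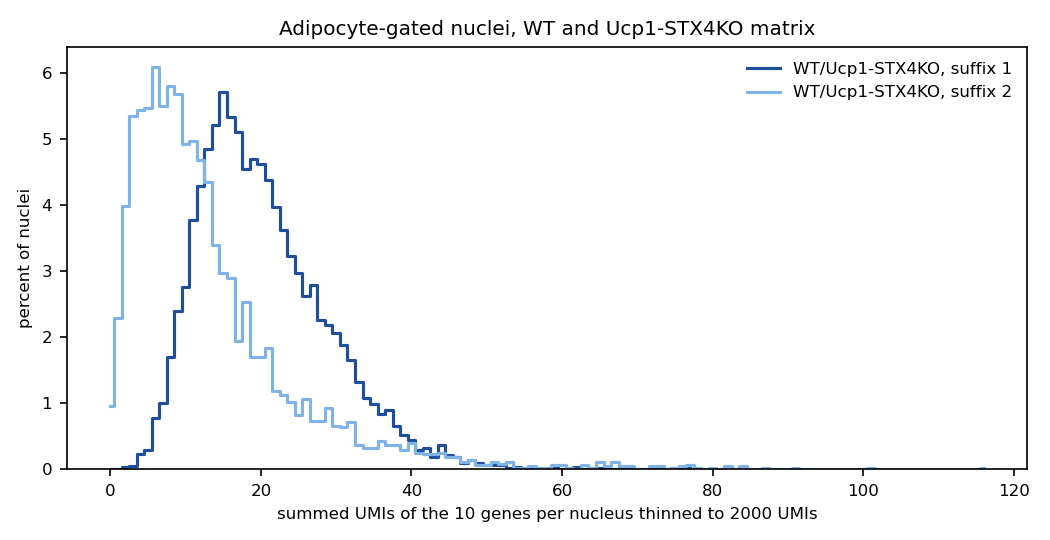
Percent of adipocyte-gated nuclei of the first matrix (vertical axis) by the summed UMIs of the 10 genes in a nucleus thinned to 2000 UMIs (horizontal axis). Suffix 2 peaks lower, with a median of 10 against 19, and has the longer tail to the right, up to 116.

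The last question was whether the genes rise and fall together among adipocyte nuclei of 1 library. Nuclei were ranked by the summed UMIs of the other 9 genes, and each gene was compared between the top 20% and the bottom 20% of nuclei. In suffix 1, with 2101 nuclei in each, 6 of 10 genes were at least 1.5-fold higher in the top 20%, beside 2.78% of the 6160 genes tested, which were ranked by all 10. Acly rose from 148 to 555 CPM, a ratio of 3.74 (3.42 to 4.09), and Fasn from 306 to 1037 CPM, a ratio of 3.39 (3.18 to 3.61).

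Elovl6 followed with 2.45 (2.33 to 2.58), Acaca with 2.44 (2.37 to 2.51), Scd2 with 2.53 (1.91 to 3.37, from 182 and 72 UMIs) and Me1 with 1.66 (1.48 to 1.86). The members with the lowest ratios were Acacb at 1.34 (1.31 to 1.38), Mlxipl at 1.38 (1.33 to 1.42), Scd1 at 1.30 (1.25 to 1.35) and Srebf1 at 1.41 (1.19 to 1.67). The genes for the transcription factors were thus under 1.5 in this library, although Srebf1 reached 1.58 when nuclei were thinned with another random seed. The malonyl-CoA enzyme of the mitochondrial surface had a lower ratio than its cytosolic partner, with intervals that did not overlap.

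In suffix 2, with 978 nuclei in each, 9 of 10 genes passed 1.5, beside a higher 15.3% of the 3652 genes tested. Fasn (8.66, 7.30 to 10.3) and Acly (8.46, 6.92 to 10.4) again had the largest ratios, followed by Acaca (5.07), Me1 (4.78), Elovl6 (3.91) and Mlxipl (3.54). Srebf1 had 1.49 (1.17 to 1.89). For Acly, Fasn and Me1 the largest step came at the very top. Across the 5 groups from lowest to highest, Acly was at 54.6, 48.5, 56.2, 85.9 and 463 CPM, and Me1 at 221, 269, 289, 361 and 1057 CPM. Fasn rose earlier as well, at 75.6, 99.6, 139, 212 and 651 CPM.

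The bottom 20% also held more RNA of leukocytes and stromal cells. Ptprc, the pan-leukocyte surface gene, had 60 UMIs in the bottom and 11 in the top 20% of suffix 1, and 679 and 30 in suffix 2. Macrophage markers summed to 55 and 26 UMIs in suffix 1 and to 466 and 55 in suffix 2, and stromal markers to 248 and 118 and to 505 and 138. Endothelial and Schwann markers had top to bottom ratios of 0.947 and 0.928 in suffix 1 and 1.22 and 0.964 in suffix 2, and mural markers 324 and 341 UMIs in the top and bottom 20% of suffix 1 and 80 and 189 in suffix 2. The adipocyte list itself had a top to bottom ratio of 0.934 in suffix 1 and 1.60 in suffix 2. Among nuclei with no UMI of any other marker list, 3210 with suffix 1 and 795 with suffix 2, 5 and 9 genes passed. There Acly had ratios of 3.72 and 12.1 and Fasn 2.90 and 9.33, while in suffix 2 Elovl6 fell from 3.91 to 1.74, Me1 from 4.78 to 2.79, Mlxipl from 3.54 to 2.35, Scd2 from 3.13 to 1.75 and Srebf1 from 1.49 to 0.968, and in suffix 1 Me1 fell to 1.40. With Pparg and Acsl1 left out of the gate, 6 and 9 genes passed, and Acacb in suffix 2 fell from 2.90 to 1.88. Ptprc is in no marker list and stayed higher in the bottom 20% of suffix 2 under both settings. It had 36 UMIs in the bottom and 4 in the top 20% with no UMI of another list. Without Pparg and Acsl1 it had 233 and 32. These settings thus do not remove leukocyte RNA.

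**Figure D5:**
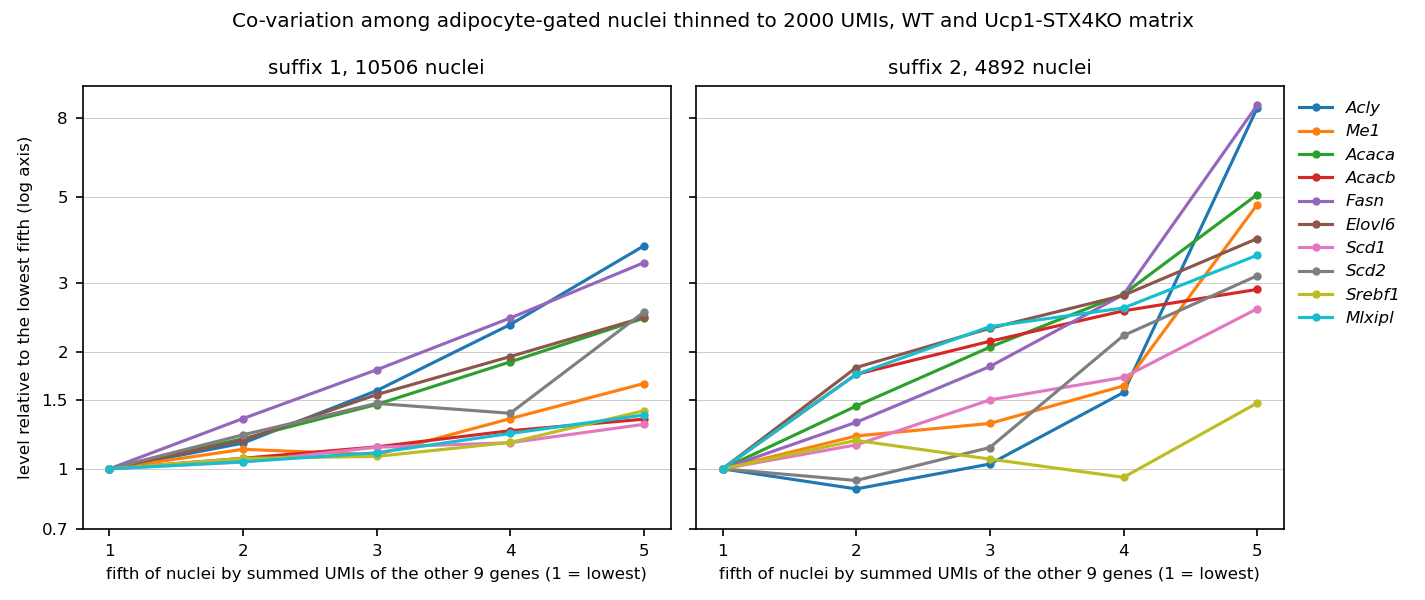
Level of each gene relative to the lowest group (log axis) across 5 equal groups of thinned adipocyte-gated nuclei ranked by the other 9 genes, for suffix 1 (left, 10506 nuclei) and suffix 2 (right, 4892 nuclei). Acly and Fasn end highest in both, at 3.74 and 3.39 in suffix 1, and in suffix 2 Acly, Fasn and Me1 climb most in the last step.

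The aging libraries are shallower, and only genes with at least 50 UMIs in both 20% groups together are given. Of these, 6 of 7, 6 of 8 and 4 of 6 passed 1.5 in suffixes 1, 2 and 3, beside 7.45%, 14.5% and 15.2% of the 161, 159 and 46 genes tested. Acaca had ratios of 4.74, 3.01 and 4.06, Fasn 8.21, 2.68 and 4.07, and Elovl6 2.80, 2.46 and 2.63. Acly had 9.15 and 4.07 in suffixes 1 and 2, and 47 UMIs in suffix 3, too few for the rule. Acacb was at 1.42, 1.37 and 1.36. Thinning with another seed took it past 1.5 in aging suffixes 2 (1.73) and 3 (1.75). At 500 UMIs per nucleus Elovl6 was under 1.5 in suffixes 2 (1.40) and 3 (1.33), Acaca fell to 1.90 in suffix 3 and Fasn to 3.69 in suffix 1, so ratios this shallow are loose. Scd1 differed between them, at 3.25, 0.996 and 1.51.

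Pairs of genes, as a description over nuclei of equal depth, reached a Pearson r of 0.514 at most. The highest Pearson r in suffix 1 joined Acaca with Fasn (0.343 over 10506 nuclei), Acaca with Acly (0.321) and Acaca with Elovl6 (0.242). In suffix 2 Acaca with Fasn (0.514 over 4892 nuclei), Acaca with Acly (0.465) and Acaca with Me1 (0.457) were highest. Acaca with Acacb had 0.151 and 0.162. Nuclei of a library share its droplets and free RNA, and counts this low hold r down.

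The genes around the route were counted in the same 20% groups, by lists chosen for their function. In suffix 1, where 2.78% of all genes passed 1.5, 3 of 8 genes of citrate and acetyl-CoA supply did, led by Acss2 at 3.02, as did 2 of 5 of NADPH supply, led by transketolase (Tkt) at 1.74. Of glucose uptake and glycolysis 5 of 14 passed, led by Pfkp at 2.31, and of regulators 3 of 11, led by Insig1 at 2.32. Insig1 retains the SREBP precursors in the endoplasmic reticulum and is itself a target of SREBP. The medians of these lists were 1.23, 1.28, 1.45 and 1.04, beside 0.985 for all genes. No gene of these 4 lists was 1.5-fold lower. The citrate and acetyl-CoA count was not stable, with 1 of 8 past 1.5 when Pparg and Acsl1 were left out of the gate and 2 of 7 among nuclei with no UMI of another list.

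In suffix 1 none of 11 thermogenic genes was higher by 1.5-fold. With 2.78% of all genes past 1.5, this count alone says little. Their median was 0.956, beside 0.985 for all genes. Ppargc1a, the coactivator of the thermogenic programme, was lower at 0.633 (0.602 to 0.665). Ucp1 was at 0.969. In suffix 2, by contrast, 8 of 9 thermogenic genes were higher, with a median of 2.88, Ucp1 at 2.67 and Ppargc1a at 3.33. Citrate and acetyl-CoA supply had 7 of 7 and glycolysis 8 of 9 past 1.5 there, beside the 15.3% of all genes. Without Pparg and Acsl1 in the gate these counts were 5 of 7 and 4 of 9, beside 6.08% of all genes, and with no UMI of another list 2 of 5 and 1 of 1, beside 16.6%. Among nuclei with no UMI of another list, 8 of 9 thermogenic genes of suffix 2 were higher, with a median of 1.96. In suffix 1 it was 0 of 9, beside 3.64% of all genes, with medians of 0.968 and 0.996. The difference between the libraries in this respect was not tested, as each is a single library.

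Over all genes but the members, 3378 had at least 200 UMIs in the 20% groups of both libraries, of which 55 were higher and 86 lower by 1.5-fold in both. The highest in suffix 1 was Aacs, which activates acetoacetate for lipid synthesis, with 3.14 in suffix 1 and 3.13 in suffix 2. Acss2 followed with 3.02 and 7.14, and Fam57b, a ceramide synthesis gene, with 2.83 and 9.29. The kinase Sik1 (2.78 and 2.17), the cholesterol synthesis gene Nsdhl (2.60 and 2.51) and Ugp2, which makes UDP-glucose (2.59 and 4.51), came next. Pcyt2 of phosphatidylethanolamine synthesis (2.47 and 2.14), the thioesterase Acot11 (2.33 and 8.33), Insig1 (2.32 and 3.07) and Pfkp (2.31 and 1.73) completed the 10.

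In the shallow aging libraries Acss2 had ratios of 2.82, 4.86 and 3.00 from 130, 129 and 32 UMIs, and Acot11 of 2.86, 3.28 and 3.14 from 85, 107 and 29. Aacs had 3.13, 1.41 and 3.17 from 62, 41 and 25 UMIs. The other 7 had at most 42 UMIs there, and Sik1 had 0.0714, 1.10 and 0.167 from 15, 42 and 7. The 5 lowest were Antxr2 (0.351 and 0.232), Nnat (0.367 and 0.179), Slit3 (0.369 and 0.566), Dmd (0.381 and 0.608) and Auts2 (0.382 and 0.458). Macrophage and stromal markers were also higher in the bottom 20%, as given above, and their part in these 5 ratios was not tested.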

How the data were processed

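The authors aligned reads to mm10 with Cell Ranger 6.1.2 and deposited raw UMI counts per gene and barcode. Intron counting and the annotation release are not given in the sources used here. The counts were used as deposited, for nuclei with at least 200 UMIs and 100 genes. A nucleus was gated into the type whose marker list had the most UMIs, at least 3 over at least 2 markers and at least 2 times the next list. No doublets were removed. The members, the 9 marker lists and the pathway lists were chosen with earlier results of these data known.

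Sums by gate and library used pandas 2.3.3, scipy 1.17.1 and numpy 2.4.6 (Python 3.11.15), and plots matplotlib 3.10.9. Intervals at 95% are exact Poisson for sums, Clopper-Pearson for shares and conditional binomial for ratios, checked on simulated data. Genes entered backgrounds with at least 200 UMIs, and aging members the 20% groups with at least 50. Nuclei were thinned to 2000 (first matrix) or 1000 UMIs (aging matrix). Named genes were the members, the highest and lowest of each list, and the 10 highest and 5 lowest other genes by the top to bottom ratio of suffix 1, with at least 200 UMIs and a ratio past 1.5 (or its inverse) in both libraries of the first matrix. Of the list genes, others are named as examples chosen after their values were seen. Gene spans are from a GRCm38 annotation and promoters from RefSeq. Stricter gates, other thinning and each library alone were tried.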

Additional observations from a re-analysis of the deposited data

How the results depend on the processing

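The count of genes at least 2-fold higher in adipocyte-gated nuclei of the first matrix fell from 7 to 3 under the upper limits that the methods state, which leave 260 other gated nuclei. The ratio of Scd2 in the aging matrix turned from 0.294 to 1.25 with suffix 3 alone. The other counts of members stayed within 1.5 times under the alternatives run, but no such count was recomputed for the 20% groups of the aging matrix. Some counts of list genes moved more under a gate without Pparg and Acsl1, chosen after seeing the data. Citrate and acetyl-CoA supply in suffix 1 fell from 3 to 1 of 8, beside 2.78% and 3.05% of all genes. In suffix 2 glycolysis fell from 8 to 4 of 9 and fatty acid oxidation from 8 to 2 of 9. Glycerolipid assembly there fell from 5 to 3 of 7, and thermogenic genes from 8 to 7 of 9. The share of all genes past 1.5 in suffix 2 fell too, from 15.3% to 6.08%. With no UMI of another list, the first matrix left 1 other gated nucleus and aging suffixes 2 and 3 fewer than 100 adipocyte nuclei, so those values could not be had. Scd2 and Srebf1 are limited by their few UMIs. No paired analysis was possible because there is 1 library per condition and no suffix is tied to a sample.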
